A study of Mus musculus with 342 samples.

Results

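CC005/TauUnc is 1 of 44 lines of the Collaborative Cross, inbred mice that each carry a different mix of several founder genomes, whose livers were profiled after a single oral dose of TAK-875 or of vehicle. The samples were chosen by the line label: 8 of the 342 arrays came from CC005/TauUnc, 4 from mice given TAK-875 at 600 mg/kg and 4 from mice given 0.5% methylcellulose in water. All were males about 8 to 10 weeks old, treated in 4 pairs of 1 TAK-875 mouse and 1 vehicle mouse, and each liver was collected 24 hours after the dose. The other 43 lines contributed 334 arrays, in 167 pairs treated in the same way. All CC005/TauUnc mice belong to 1 inbred line, so the replicates are separate animals of the same genotype, and what they show holds for that genotype only. The compound is named here as in the labels, though the series is titled with another TAK number.

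TAK-875 (fasiglifam) activates GPR40, a receptor for free fatty acids, and was developed for type 2 diabetes and given up because of liver injury. In mouse liver, PPARA is the nuclear receptor that binds fatty acids and turns on the genes of peroxisomal, mitochondrial and microsomal fatty acid oxidation, and synthetic carboxylic acids can activate it as well. Bile acids are made from cholesterol in hepatocytes, secreted into bile by the pumps of the canalicular membrane and taken up again from blood by transporters of the sinusoidal membrane. Proteasomes, the CCT chaperonin and the COP9 signalosome are large complexes that degrade, fold or regulate proteins in every cell.

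Levels are given as deposited, as log2 values normalized by RMA, so a difference of 1 is 2-fold, and levels of different genes cannot be compared. The tests covered 9093 genes, and 1 probe set stood for each gene. The median correlation of each of the 8 arrays with the others of its group was 0.967 to 0.985, the lowest being TAK-875 mouse 2. The hepatocyte markers were high in all 8 livers. Their 13 measured genes summed to between 100212 and 105391 in TAK-875 livers and to between 96402 and 100585 in vehicle livers on the linear scale, the lowest gene averaged 10.87 and 11.04 (log2), and 0 of 13 passed the test. Since whole liver was measured, fewer cells of a type and less RNA per cell cannot be told apart.

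TAK-875 changed 990 of the 9093 genes (10.9%) in CC005/TauUnc livers. Of these 652 rose (7.17% of all genes tested) and 338 fell (3.72%), by limma on the differences within pairs with a Benjamini-Hochberg adjusted p under 0.05. Rises were larger than falls: 130 genes rose at least 2-fold and 3 fell at least 2-fold, with a median change of 0.76 among rises and -0.50 among falls. The direction was the same in all 4 pairs for 893 of the 990 genes. The levels of TAK-875 and vehicle mice did not overlap for 516 of the 652 rises and 262 of the 338 falls, against 1874 of all 9093 genes (20.6%). The genes were called on these same arrays, so the counts of direction and overlap are not separate support. The share of rises, 65.9%, depended on the scaling: it was 47.9% with each array centred on its median (531 rises and 577 falls) and 49.9% with quantile normalization applied again (626 rises and 629 falls).

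The size of this response rested on pairs 1 and 2. The median change of the genes that rose was 1.09 in pair 1, 0.89 in pair 2, 0.47 in pair 3 and 0.53 in pair 4. The genes that fell changed by a median of -0.62, -0.70, -0.36 and -0.29 in the same pairs. Without pair 1, 25 genes passed the threshold (19 rises and 6 falls), all of them among the 990, and without pair 2 105 did (90 rises and 15 falls). Without pair 3 the count was 935 and without pair 4 it was 1095. All 990 genes, called with pair 1 in the fit, kept their direction without it. Their median size of change was then 0.56, against 0.65 with all pairs.

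The response also ran along a direction in which untreated mice of one line differ from each other. The leading axis of variation between vehicle mice of the same line was taken from the 43 other lines, where it holds 21.3% of that variance, and each CC005/TauUnc array was scored on it, in within-line SDs from the vehicle mean of CC005/TauUnc. The axis was added after the data were seen. The TAK-875 mice scored 2.06, 2.89, 1.47 and 1.48, and the vehicle mice -1.32, 0.08, 0.31 and 0.93, in the order of the pairs. All TAK-875 mice lay above all vehicle mice. The mean difference within pairs was 1.98 ± 1.34 (SD, n = 4), with 3.39 in pair 1 and 2.80 in pair 2, against 1.16 in pair 3 and 0.56 in pair 4. Of the 43 other lines, 1 had a larger mean difference, CC025/GeniUnc with 2.03. Across genes, the CC005/TauUnc response correlated with the loading on the axis by 0.74, while the mean response of the other lines correlated with it by -0.08. A positive loading was found for 97.2% of the genes that rose and for 45.0% of all genes, and 98.8% of the genes that fell had a negative one. What the axis measures was not tested.

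**Figure D1:**
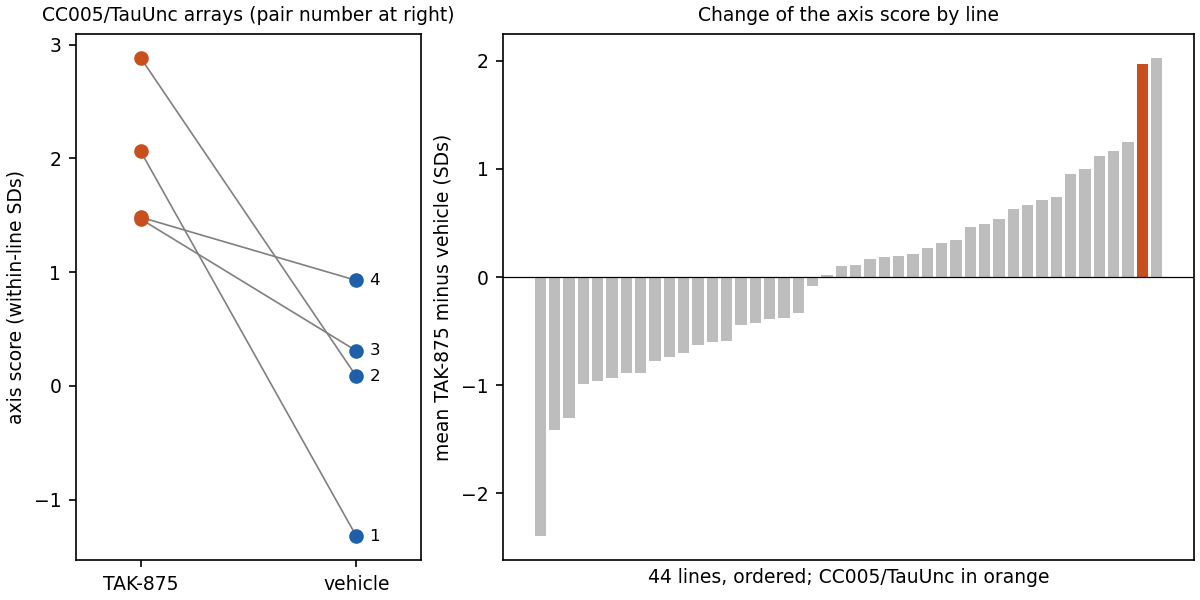
Left, the score of each CC005/TauUnc array on the leading axis of variation between vehicle mice of the same line, in within-line SDs from the CC005/TauUnc vehicle mean, with TAK-875 (orange) left of vehicle (blue) and pairs joined. Right, the mean TAK-875 minus vehicle score of each of the 44 lines: CC005/TauUnc (orange bar) reached 1.98, and 1 line was higher.

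With the axis score as a covariate, 59 genes passed the test in CC005/TauUnc (0.649%), 38 higher (0.418%) and 21 lower (0.231%). The score comes from the same arrays, those of TAK-875 mice included, and the groups differed on it. The covariate therefore also takes out any effect of TAK-875 that runs along the axis. A gene that did not pass with it may still have responded to TAK-875. Of the 990 genes, 40 were among them with the same sign (0.44%), 36 rises (0.396%) and 4 falls (0.044%). These 40 genes are described first. Of them, 18 also passed without each of the 4 pairs in turn, 14 rises and 4 falls.

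Vnn1, the pantetheinase that splits pantetheine and is induced through PPARA, had the largest rise of all. Its level was 7.82, 7.65, 7.39 and 7.35 in TAK-875 mice of pairs 1 to 4, against 3.75, 5.84, 5.27 and 5.90 in their vehicle partners. The groups did not overlap, and vehicle mouse 1 lay far below the other vehicle mice. The change was 2.36 ± 1.17 (SD of pairs, n = 4; 5.14-fold; adjusted p = 3.79e-05), 2.12 with the axis as covariate and 1.79 without pair 1 (adjusted p = 0.0467). The other lines averaged 0.95 ± 0.60 (SD over 43 lines), 1 of them was higher, and the difference passed the test of difference (adjusted p = 0.0148).

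Bex1, a small adaptor-like protein known mainly from neurons, stood at 6.67, 6.15, 6.13 and 6.39 in TAK-875 mice and at 4.66, 4.57, 4.91 and 4.33 in vehicle mice. Every TAK-875 mouse was above every vehicle mouse, and the 4 pairs differed little in their change. It rose by 1.72 ± 0.39 (3.29-fold; adjusted p = 0.00169), by 1.76 with the axis as covariate and by 1.62 without pair 1, where the adjusted p was 0.0607. In the other lines its mean change was 0.09 ± 0.49, and none was as high. CC005/TauUnc had the highest change of all lines for 509 of the 990 called genes and 895 of all 9093. The probes for Bex1 may also bind related transcripts, so which member of its family was measured is uncertain.

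The CCT chaperonin, the barrel-shaped complex that folds actin and tubulin, is made of 8 kinds of subunit, and all 8 were measured. The family was singled out after its values were seen. Of the 8 genes 7 rose and 0 fell, against 7.17% and 3.72% of all genes, and their median change was 0.78, against 0.01 over all genes. The groups did not overlap for 6 of them, against 20.6% of all genes. Cct5 had 9.52, 9.81, 9.70 and 9.71 in TAK-875 mice, against 8.60, 8.91, 9.05 and 9.07 in vehicle mice, a rise of 0.78 ± 0.15 (adjusted p = 4.41e-05). Cct6a rose by 1.23 ± 0.19 (adjusted p = 4.41e-05) and Cct4 by 1.05 ± 0.28 (adjusted p = 0.000539). With the axis as covariate these 3 subunits still passed, at 0.60 for Cct5, 0.84 for Cct6a and 0.56 for Cct4. They also passed without each pair in turn. Cct8 (1.09), Tcp1 (0.77), Cct3 (0.57) and Cct2 (0.44) rose in the fit without the covariate and did not pass with it. Cct7 had 0.25 (adjusted p = 0.335). The probes for Cct6a may also bind related transcripts.

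The COP9 signalosome removes the ubiquitin-like protein NEDD8 from cullin ubiquitin ligases, and 9 of its genes were measured. This family too was singled out after its values were seen. Of the 9 genes 2 rose and 0 fell, against 7.17% and 3.72% of all genes. Their median change was 0.09, against 0.01 over all genes. The groups did not overlap for 2 of the 9, near the 20.6% of all genes. Cops5, the catalytic subunit, had 8.59, 8.77, 8.71 and 8.71 in TAK-875 mice and 7.66, 7.98, 8.05 and 8.13 in vehicle mice. Cops3 had 8.23, 8.44, 8.36 and 8.19 in TAK-875 mice and 7.00, 7.45, 7.88 and 7.93 in vehicle mice. Neither gene overlapped between the groups, and both rose by 0.74, with SDs of pairs of 0.15 for Cops5 (adjusted p = 4.41e-05) and 0.44 for Cops3 (adjusted p = 5.89e-05). Both held with the axis as covariate, Cops5 at 0.55 and Cops3 at 0.54. The other 7 measured members did not pass, with changes between -0.17 (Cops7b) and 0.32 (Cops4).

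Further genes of the 40 are given with their known roles, picked after their values were seen and not counted as groups. Vti1b, a SNARE protein of endosomes and lysosomes, had the smallest adjusted p of these genes. It stood at 8.62, 8.78, 8.68 and 8.51 in TAK-875 mice and at 7.46, 8.14, 7.65 and 7.94 in vehicle mice, a rise of 0.85 ± 0.28 (adjusted p = 2.18e-08; 0.72 with the axis). Vcl, which encodes vinculin of cell adhesions, rose by 1.34 ± 0.46 (0.92 with the axis), and Snx5, a sorting nexin of the retromer pathway, by 1.34 ± 0.68 (0.78 with the axis). Mal2, a protein of transcytosis in polarised cells such as hepatocytes, had 6.75, 7.46, 6.72 and 7.15 in TAK-875 mice and 4.53, 6.27, 6.00 and 5.67 in vehicle mice. It rose by 1.40 ± 0.63 (0.78 with the axis). Pde4dip, which anchors phosphodiesterase at the centrosome and Golgi, rose by 1.47 ± 0.64 (0.80 with the axis), and Arfgef2, an exchange factor for ARF proteins, by 0.88 ± 0.54 (0.51). Others were Chchd3, a component of the cristae junction complex (0.61 ± 0.16; 0.49 with the axis), Dnajc15 (0.51 ± 0.07), Ndufv2 of complex I (0.34 ± 0.06) and Mrpl35 of the mitochondrial ribosome (0.44 ± 0.14). The probes for Vti1b, Snx5 and Mrpl35 may also bind related transcripts.

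The 4 falls that held with the axis as covariate also held without each pair in turn. Rnaseh2c, a subunit of the enzyme that removes ribonucleotides from DNA, had 7.70, 7.05, 7.57 and 7.26 in TAK-875 mice, against 8.77, 8.31, 8.15 and 7.98 in vehicle mice. The groups did not overlap, and the change was -0.91 ± 0.31 (1.88-fold lower; adjusted p = 0.001; -0.60 with the axis). Mpnd changed by -0.66 ± 0.16, Pet100, an assembly factor of cytochrome c oxidase, by -0.64 ± 0.22, and Aamp by -0.49 ± 0.07. The probes for Aamp may also bind related transcripts. All 4 changes were lower than those of each of the 43 other lines, which is common among called genes. CC005/TauUnc had the lowest change of all lines for 242 of the 990 called genes and 634 of all 9093. The plot of levels by mouse shows 8 of the genes described.

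**Figure D2:**
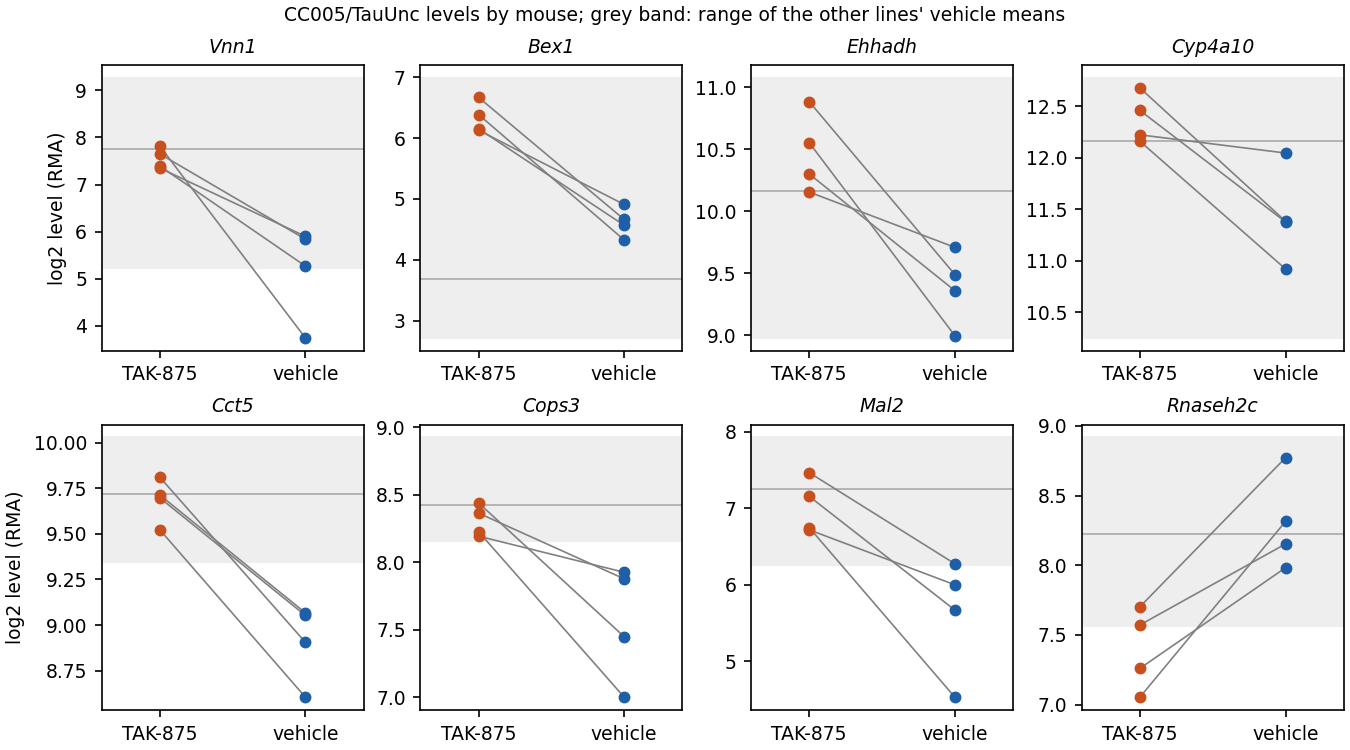
Log2 levels of Vnn1, Bex1, Ehhadh, Cyp4a10, Cct5, Cops3, Mal2 and Rnaseh2c in each CC005/TauUnc mouse, TAK-875 (orange) left of vehicle (blue), with lines joining pairs. The grey band is the range of the vehicle means of the other lines and the grey line their mean: for Cops3 and Cct5, all TAK-875 mice fall in the band and all vehicle mice below it.

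The largest rises with 1 sign in all pairs that did not pass with the axis as covariate follow. Selenot, a selenoprotein of the endoplasmic reticulum, had 6.66, 7.50, 6.38 and 6.25 in TAK-875 mice and 5.16, 4.45, 4.81 and 5.77 in vehicle mice, a change of 1.65 ± 1.05 (0.40 with the axis). Phf11a rose by 1.51 ± 1.25 (1.24 with the axis), and TAK-875 mouse 2 was its highest at 6.91. The adhesion gene Dsg2, desmoglein 2, rose by 1.42 ± 0.59 (0.66 with the axis). The others were Trim2 (1.56), Ube2q2 (1.53), Sorbs2 (1.41), Kdm1b (1.40), Mfsd8 (1.40), Hsdl2 (1.37), Ivns1abp (1.36) and Nsmaf (1.35). Txlng, whose pair 3 went the other way, rose by 1.88 ± 1.96 (0.70 with the axis). With the axis as covariate these other 8 came to between 0.43 (Mfsd8) and 0.87 (Ube2q2). The probes for Trim2 may bind unrelated transcripts, and those for Selenot, Hsdl2 and Ivns1abp related ones.

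PPARA target genes rose in part. Of 49 measured, 10 rose and 0 fell, against 7.17% and 3.72% of all genes, and their median change was 0.17, against 0.01 over all genes and 0.24 for the same 49 genes in the mean of the other lines. Without pair 1, 1 of the 49 rose, and without pair 2, 4 did, where 19 and 90 of all 9093 genes rose. By the mean change over the list, 22 of the 43 other lines were higher than CC005/TauUnc.

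Ehhadh, which carries out the middle steps of peroxisomal beta-oxidation, had 10.88, 10.30, 10.15 and 10.55 in TAK-875 mice and 9.49, 9.36, 9.71 and 8.99 in vehicle mice. It rose by 1.08 ± 0.50 (2.12-fold; adjusted p = 0.0025; 1.05 with the axis). Cyp4a10, a fatty acid omega-hydroxylase, had 12.46, 12.16, 12.22 and 12.68 in TAK-875 mice and 11.38, 10.92, 12.05 and 11.38 in vehicle mice. It rose by 0.95 ± 0.52 (adjusted p = 0.00199; 0.99 with the axis), though its probes may also bind related transcripts. In both genes every TAK-875 mouse exceeded every vehicle mouse. Ehhadh changed by 0.81 ± 0.35 in the other lines and Cyp4a10 by 0.44 ± 0.37, and neither difference from CC005/TauUnc passed the test (adjusted p = 0.446 and 0.0878). Acaa1b, the peroxisomal thiolase, rose by 0.68 ± 0.39 (0.86 with the axis) and Eci1, a mitochondrial enoyl-CoA isomerase, by 0.43 ± 0.19 (0.55 with the axis). Acaa1b overlapped between the groups and passed in none of the fits that left out 1 pair.

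The other 5 PPARA targets that rose did not pass with the axis as covariate. Acadm, the medium-chain acyl-CoA dehydrogenase of mitochondria, had 9.60, 9.67, 9.43 and 8.98 in TAK-875 mice and 7.85, 8.29, 8.56 and 8.38 in vehicle mice, a rise of 1.15 ± 0.52 (0.58 with the axis, adjusted p = 0.0681). Aldh3a2, the fatty aldehyde dehydrogenase, rose by 1.07 ± 0.62 (0.78 with the axis), and Abcd3, a fatty acid transporter of the peroxisomal membrane, by 0.81 ± 0.36 (0.28). Decr1 of mitochondrial oxidation of unsaturated fatty acids rose by 0.53 ± 0.16 (0.37) and Hsd17b4 of the peroxisome by 0.45 ± 0.39 (0.22). Acadm and Abcd3 rose more than in the mean of the other lines, where they changed by 0.26 ± 0.30 and 0.04 ± 0.30 (adjusted p of the difference 0.0148 and 0.0257).

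Acot1, a cytosolic acyl-CoA thioesterase, had a large change that missed the threshold. It stood at 8.15, 7.59, 7.26 and 7.73 in TAK-875 mice and at 6.31, 6.72, 5.95 and 4.92 in vehicle mice, with no overlap, and changed by 1.70 ± 0.83 (adjusted p = 0.072). The other lines averaged 1.37 ± 0.85 and 15 of them were higher. None of the 9 thioesterase genes measured passed. Cpt1a, which lets fatty acids into mitochondria, had 10.23, 9.71, 9.70 and 9.41 in TAK-875 mice and 9.43, 9.37, 10.14 and 10.08 in vehicle mice, a change of 0.01 ± 0.68 (adjusted p = 0.986), and 39 of the 43 other lines were higher. Fgf21, the hepatic hormone of fasting, changed by -0.11 ± 0.30 and Pdk4, the kinase that shuts down pyruvate dehydrogenase, by 0.17 ± 0.84.

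**Figure D3:**
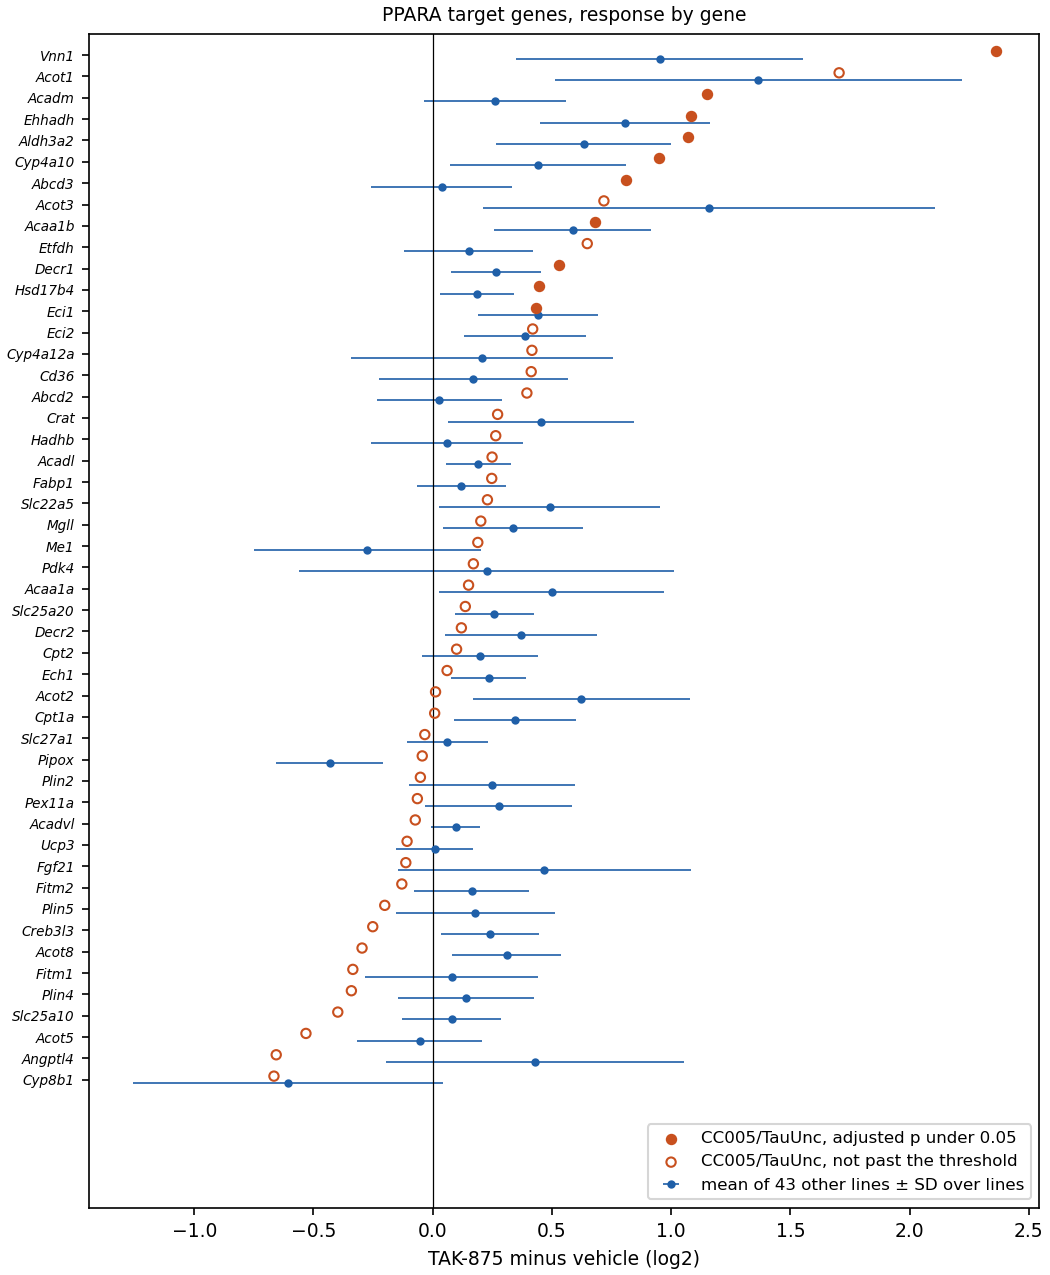
TAK-875 minus vehicle change (log2) of the 49 measured PPARA target genes in CC005/TauUnc (orange; filled where the adjusted p was under 0.05) and in the mean of the 43 other lines (blue, bars ± SD over lines). The 10 filled points are rises, the largest that of Vnn1 at 2.36, and Acot1 is open at 1.70.

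The promoters of Ehhadh and Aldh3a2 are shown as those of PPARA targets that rose and hold 1 of the 7 motifs searched. They are the 300 bases around the gene's start in RefSeq (GRCm38.p6), chr16:21787785-21788084 for Ehhadh and chr11:61267137-61267436 for Aldh3a2, both on the minus strand and written 5′ to 3′, with the motif in capitals.
Ehhadh: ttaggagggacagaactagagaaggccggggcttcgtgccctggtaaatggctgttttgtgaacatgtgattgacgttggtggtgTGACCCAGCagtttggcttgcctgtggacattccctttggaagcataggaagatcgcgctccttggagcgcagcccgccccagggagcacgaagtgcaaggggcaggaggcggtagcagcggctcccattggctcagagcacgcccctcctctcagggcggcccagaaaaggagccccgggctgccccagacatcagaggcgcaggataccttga
Aldh3a2: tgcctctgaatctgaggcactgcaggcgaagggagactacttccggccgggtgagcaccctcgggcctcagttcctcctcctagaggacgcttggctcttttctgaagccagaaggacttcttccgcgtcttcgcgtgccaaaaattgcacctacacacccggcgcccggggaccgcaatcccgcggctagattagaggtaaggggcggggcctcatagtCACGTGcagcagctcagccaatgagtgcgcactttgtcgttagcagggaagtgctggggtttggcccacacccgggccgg
The capitals are the antioxidant response letters TGACNNNGC in Ehhadh and the E-box CACGTG in Aldh3a2. On both strands, TGACNNNGC is in 16% of the promoters of the 538 genes that rose and in 13.1% of those of the 282 that fell, against 14.4% of the 7421 tested genes with an entry and 12.5% of all 27025 promoters. CACGTG is in 11.9% of the rises and 8.51% of the falls, against 10.5% of tested genes and 7.24% of all promoters. The inner letters of the PPARA/RXR repeat, TCANAGGTC, are in 0.929% of the rises and 0 of the 41 measured PPARA targets with an entry, against 0.97% of tested genes and 1.08% of all promoters. The D-box TTATGNAA is in 2.79% of rises, 2.18% of tested genes and 3.52% of all promoters. The CRE TGACGTCA is in 3.72% of rises, 3.29% of tested genes and 1.88% of all. The AP-1 motif TGACTCA is in 3.9% of rises, 3.75% of tested genes and 5.17% of all, and the amino acid response motif ATTGCATCA in 0.372%, 0.175% and 0.207%. None of these shares was tested. The median GC content was 61.3% in promoters of genes that rose, 60.2% in those of genes that fell and 60.7% over the 7421 tested genes with an entry.

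Of 29 measured genes of the proteasome 11 rose and 0 fell, where 7.17% of all genes rose and 3.72% fell, with a median change of 0.22, against 0.15 in the mean of the other lines. Without pair 1, and without pair 2, 0 of the 29 passed, where 25 and 105 of all 9093 genes did. Psmd1, a scaffold subunit of the regulatory particle, had 8.92, 9.37, 8.72 and 8.91 in TAK-875 mice and 7.12, 7.90, 8.17 and 8.39 in vehicle mice, a rise of 1.08 ± 0.65 (0.44 with the axis, adjusted p = 0.0468). Psmd14, the deubiquitinase of the lid, rose by 0.76 ± 0.35, Psmd12 by 0.65 ± 0.28 and the core subunit Psma1 by 0.65 ± 0.19. Psma6, another core subunit, rose by 0.45 ± 0.16 and was the second member that held with the axis (0.38, adjusted p = 0.0496). Among other chaperones 3 of 17 rose, including Hspa9 of mitochondria (0.66), whose probes may bind unrelated transcripts. In the unfolded protein response 3 of 37 rose, Hspa5 (0.93), Ssr3 (0.81) and Canx (0.78), and Edem2 fell (-0.59), counts near the 7.17% of rises and 3.72% of falls over all genes. None of these 4 passed with the axis, and the probes for Hspa5 and Canx may also bind related transcripts.

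Of 19 measured transporters of bile acids and organic anions, 6 rose and 0 fell, where 7.17% of all genes rose and 3.72% fell, with a median change of 0.42, against -0.02 in the mean of the other lines, and none of the 43 other lines had a higher mean over the list. Abcb11, the bile salt export pump, had 9.47, 9.71, 9.05 and 9.16 in TAK-875 mice and 7.91, 8.35, 8.68 and 8.08 in vehicle mice, with no overlap. It rose by 1.10 ± 0.52 (adjusted p = 0.0318), while the other lines changed by -0.10 ± 0.47 and none was as high (adjusted p of the difference 0.0214). Abcc2, which exports conjugated bilirubin and other anions, had 8.95, 8.57, 8.53 and 8.64 in TAK-875 mice and 7.29, 7.29, 8.37 and 7.66 in vehicle mice, a rise of 1.02 ± 0.64 (adjusted p = 0.00375). Its probes may also bind related transcripts. Atp8b1, the flippase of the canalicular membrane, rose by 1.30 ± 0.62, Abcg2 by 0.86 ± 0.26 and Abcb4, the phospholipid floppase, by 0.85 ± 0.66. Slc10a1, the main uptake carrier of bile salts, had 11.43, 11.54, 11.10 and 11.30 in TAK-875 mice and 10.56, 10.77, 10.94 and 10.79 in vehicle mice, a rise of 0.58 ± 0.31 (adjusted p = 0.0167). With the axis as covariate none of the 6 passed: Abcb11 came to 0.33 (adjusted p = 0.724), Abcc2 to 0.56 (0.172) and Slc10a1 to 0.35 (0.366). None passed without pair 1 or without pair 2, where 25 and 105 of all 9093 genes did. Changes were positive for 15 of the 19 genes and negative for 4, and 13 did not pass. Slc22a7 changed by -0.67 ± 0.45 (adjusted p = 0.344) and Abcc6 by -0.37 ± 0.21 (adjusted p = 0.104), both with no overlap between the groups. Slco1a1 changed by 0.42 ± 0.26 (adjusted p = 0.602). Abcc3 changed by 0.18 ± 0.41 (adjusted p = 0.64), against 0.51 ± 0.29 in the other lines.

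Of 20 genes of bile acid synthesis 3 rose and 1 fell, where 7.17% of all genes rose and 3.72% fell. Akr1d1, the reductase that forms the bile acid ring system, rose by 1.21, Slc27a2, a fatty acid and bile acid CoA ligase, by 0.50 ± 0.38 and Hsd17b4 by 0.45. Cyp46a1, the cholesterol 24-hydroxylase, had 7.98, 6.29, 7.41 and 8.07 in TAK-875 mice and 9.52, 8.32, 8.22 and 8.07 in vehicle mice, and fell by 1.10 ± 0.89 (adjusted p = 0.0188; -0.83 with the axis). The group difference was smallest in pair 4, where the 2 mice were level after rounding. Cyp7a1, the rate-limiting enzyme of the pathway, changed by 0.61 ± 0.75 (adjusted p = 0.648) and Cyp8b1, which makes cholic acid, by -0.67 ± 0.86 (adjusted p = 0.255).

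The falls were led by genes of mixed roles. Crybb3, a lens crystallin, had 4.74, 4.02, 5.18 and 4.16 in TAK-875 mice and 6.09, 6.29, 5.24 and 7.66 in vehicle mice, a fall of 1.79 ± 1.45 (adjusted p = 0.00794). Socs3, the inhibitor of cytokine signalling that interleukin 6 induces, had 3.07, 3.07, 3.52 and 3.44 in TAK-875 mice, against 3.66, 4.75, 4.58 and 6.15 in vehicle mice. The groups did not overlap, and vehicle mouse 4 was the highest. Socs3 fell by 1.51 ± 0.92 (2.84-fold; adjusted p = 0.0273; -1.31 with the axis, adjusted p = 0.231) and was the 1 of 32 acute phase genes that passed. Pklr, the liver pyruvate kinase of glycolysis, had 7.98, 7.44, 8.28 and 8.56 in TAK-875 mice and 9.23, 8.62, 8.58 and 9.22 in vehicle mice, a fall of 0.85 ± 0.45 (adjusted p = 0.0319). Cygb, a globin known from stellate cells and not on their marker list here, fell by 0.82 ± 0.46, and Ulk1, the kinase that starts autophagy, by 0.81 ± 0.58. Further falls of 0.79 to 0.94 were those of 1810012K16Rik, Tcl1b1, Gm8273, Tle6, Bmpr1a, Syt12, Gga1 and Niban2, and of these the probes for Tcl1b1 and Gga1 may bind unrelated transcripts and those for Niban2 related ones.

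Acute phase proteins, made by the liver in inflammation, varied widely between mice of both groups. Saa3, a serum amyloid, changed by -0.72 ± 3.79 (adjusted p = 0.538), and Cd14, the endotoxin co-receptor, by -0.09 ± 2.36 (adjusted p = 0.953). Cd14 was 5.56, 7.17, 6.69 and 4.52 in TAK-875 mice and 5.51, 6.60, 4.36 and 7.83 in vehicle mice. The groups overlapped throughout. The summed linear level of the acute phase list ran between 68118 and 113702 in TAK-875 mice and between 58087 and 135041 in vehicle mice.

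The counts of further gene groups stand beside 7.17% of rises and 3.72% of falls over all genes. In fatty acid synthesis Acaca, acetyl-CoA carboxylase, rose by 1.00 and Elovl2 by 0.82, while Pklr fell, and 25 of the 28 genes did not pass. In complement and coagulation 6 of 38 genes rose and 4 fell, the rises led by Hc, complement C5 (1.15), Klkb1, prekallikrein (1.15), and Masp1 (0.84). The complement and coagulation genes that fell were C2 (-0.49), F12 (-0.43), C8g (-0.38) and Masp2 (-0.37). Of the 54 genes of the respiratory chain 4 rose, led by Ndufs1 (0.69) and Atp5pb (0.56), and 5 fell, led by Uqcrc1 (-0.41) and Ndufb2 (-0.35), so that the share of rises was near that of all genes. Of 30 NRF2 targets 4 rose, with Aox1 at 1.03, Abcc2 at 1.02, Ugdh at 0.66 and Prdx1 at 0.34, and Nqo1, a defining target, had 0.19 (adjusted p = 0.688). Of 30 CAR and PXR targets 3 rose (Aldh1a7 0.91, Papss2 0.87, Ugt1a9 0.28), while Cyp2b10 changed by 0.54 ± 1.89 and Cyp3a11 by 0.30 ± 0.17 and did not pass. Of 26 interferon-stimulated genes Irgm1 (0.95), Ddx58 (0.85) and Mx1 (0.76) rose, and TAK-875 mouse 2 was the highest for Mx1 at 5.49, with the other 7 mice between 2.87 and 3.44. Without pair 2 the change of Mx1 was 0.18 (adjusted p = 0.706). In gluconeogenesis Pcx, pyruvate carboxylase, fell by 0.42.

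In the integrated stress response (31 genes), the circadian clock (20) and cholesterol synthesis (17), 0 genes passed, where 10.9% of all genes did. In the cell cycle (21), glucocorticoid targets (18) and immediate early genes (24), 0 passed as well. Changes were positive for 15 and negative for 2 cholesterol synthesis genes (median 0.46, against 0.30 in the mean of the other lines). They were positive for 5 and negative for 19 immediate early genes (median -0.32). Members with large changes were Chac1 (-0.94, adjusted p = 0.168), Nr1d2 (0.99, adjusted p = 0.2), Lss (1.19, adjusted p = 0.12), Mcm6 (0.57), Mt1 (-0.79) and Cebpd (-0.97, adjusted p = 0.141). Dio1, the deiodinase that activates thyroid hormone, changed by -0.54 ± 0.74 (adjusted p = 0.684), against -1.22 ± 0.55 in the mean of the other lines, and 2 of the 43 other lines were less negative. Dbp, a clock output factor, changed by 0.61 ± 1.25 (adjusted p = 0.641), against 1.33 ± 1.15 in the other lines. Of the thyroid hormone responsive list, Idh3a rose by 0.60, though its probes may also bind related transcripts.

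On the marker lists of other liver cells 3 genes passed the test, where 7.17% of all genes rose and 3.72% fell. Adgre1 of macrophages rose by 0.80 (1 of 17 markers), Tek of endothelium by 0.95 (1 of 17) and Prom1 of cholangiocytes by 1.22 (1 of 7). The probes for Adgre1 may also bind related transcripts. Adgre1 overlapped between the groups, with pair differences of 0.02 in pair 1 and -0.04 in pair 4, against 1.72 in pair 3, and passed in 1 of the 4 fits that left out a pair, with 0.57 (adjusted p = 0.328) without pair 2. Most endothelial and cholangiocyte markers did not go with Tek and Prom1: 10 of 17 and 5 of 7 had negative changes, with medians of -0.03 and -0.12. The summed linear level of the macrophage list lay between 2281 and 5206 in TAK-875 mice and between 2595 and 4497 in vehicle mice, so that the ranges overlapped. The endothelial list lay between 2478 and 2747 in TAK-875 mice and between 2595 and 3027 in vehicle mice. Their part in the results was not tested. The cholangiocyte list lay between 190 and 227 in TAK-875 mice and between 173 and 252 in vehicle mice. No marker passed among 7 measured for neutrophils, 14 for stellate cells and fibroblasts, and 6 for B cells and MHC class II. The same held for 2 T and NK cell, 3 red blood cell, 5 pancreas, 4 adipose tissue and 9 muscle markers. With 10.9% of all genes called, such short lists can show little.

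How far the response differed from that of the other lines was tested directly. The CC005/TauUnc change differed from the unweighted mean change of the 43 other lines for 1085 genes (11.9%), 697 higher (7.67%) and 388 lower (4.27%). The split was even at 613 higher and 613 lower with centred arrays, and 687 higher and 647 lower with quantile normalization applied again. Of the 1085 genes, 792 were also among the 990 called in CC005/TauUnc, with the same sign. The most positive differences were those of Txlng (1.82), Upp2, a uridine phosphorylase (1.73), Bex1 (1.63), Selenot (1.63), Phf11a (1.63), Gas2 (1.58), Trim2 (1.55) and Gm20300 (1.54). The most negative were those of Socs3 (-1.59), Crybb3 (-1.35), S100g (-1.20), Tmco6 (-0.96), Tcl1b1 (-0.95), Cygb (-0.91), Syt12 (-0.91) and Gm8273 (-0.90). Upp2, Gm20300 and S100g passed this test and not that of the response in CC005/TauUnc. The probes for Upp2 and Gas2 may also bind related transcripts. Across genes, the response correlated with the mean response of the other lines by 0.08, and by 0.21 with the axis as covariate.

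With the axis as covariate the differences numbered 40 (0.44%), 22 higher (0.242%) and 18 lower (0.198%). Set against the spread between lines in place of that between pairs, 4 genes differed (0.044%), all higher: Cops3, Vti1b, Chchd3 and Mal2. Cops3 changed by 0.74 in CC005/TauUnc and by -0.02 ± 0.15 (SD over 43 lines) in the others, Vti1b by 0.85 and 0.07 ± 0.15, Chchd3 by 0.61 and -0.03 ± 0.12, and Mal2 by 1.40 and -0.06 ± 0.31. For each of the 4, no other line had as high a change. By this test 0 genes were lower, 744 being lower at an unadjusted p under 0.05.

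The lines with the most similar responses were CC025/GeniUnc, CC033/GeniUnc and CC032/GeniUnc, with correlations across genes of 0.72, 0.50 and 0.48. With the axis as covariate these were 0.24, 0.16 and 0.24. CC041/TauUnc had the most opposed response, -0.62, and 0.01 with the covariate. Its mean change on the axis was -2.40. These correlations run over genes, which are not independent replicates.

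The vehicle mice of CC005/TauUnc had extreme levels in more genes than those of most other lines. The CC005/TauUnc vehicle mean was the lowest of the 44 lines for 595 genes and the highest for 572. The median of the other lines was 135 and 151 genes. More lowest genes were found in 2 lines, CC033/GeniUnc (989, against 178 among TAK-875 means) and CC052/GeniUnc (795, against 358). More highest genes were found in 1 line, CC053/Unc (708, against 634 among TAK-875 means). The TAK-875 mice of CC005/TauUnc had the lowest mean of the TAK-875 groups for 81 genes and the highest for 148, against medians of 168 and 169 in the other lines, and 39 and 27 lines had more. Without vehicle mouse 1 the vehicle counts were 422 and 440. Without any other vehicle mouse they were between 597 and 730. With 1 TAK-875 mouse left out, the TAK-875 counts were between 101 and 210.

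**Figure D4:**
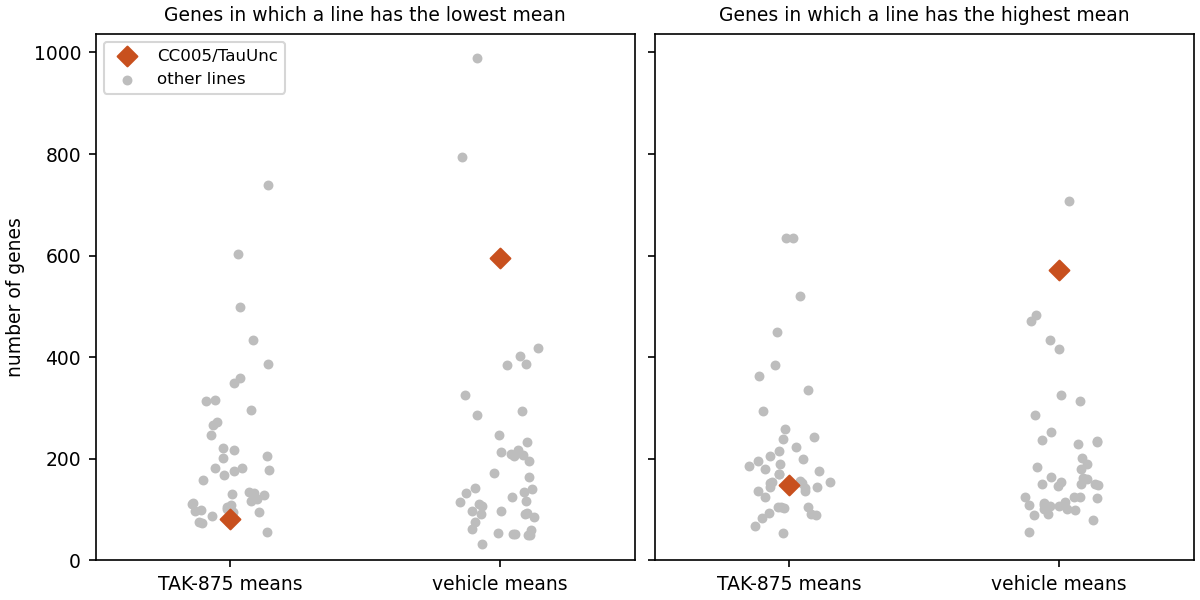
Number of genes in which each of the 44 lines has the lowest (left) or highest (right) mean, among the TAK-875 means and among the vehicle means. CC005/TauUnc (orange diamonds) has 81 lowest and 148 highest genes among TAK-875 means, and 595 lowest and 572 highest among vehicle means.

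By limma, the vehicle level of CC005/TauUnc differed from the mean of the other lines for 4058 genes (44.6%), 2112 higher (23.2%) and 1946 lower (21.4%). At least 2-fold differences were seen for 146 higher and 248 lower genes. Inbred lines differ at many loci, and a sequence difference under a probe cannot be told apart from a difference in RNA level. The highest were Cxcl14, a chemokine (9.07 in CC005/TauUnc, against 4.94 ± 1.59 in the other lines, SD over lines), Cyp46a1 (8.53, against 5.04 ± 2.10), Ugt3a2, Cxcl1, Cyfip2, D630033O11Rik, Cyp2b9 and Trib3. The lowest were B4galnt1, a ganglioside synthase (2.87, against 7.43 ± 1.92), Tmem14c (7.18, against 10.59 ± 1.58), Hc (7.59, against 10.28 ± 0.74), Sh3bp2, Vnn1 (5.19, against 7.75 ± 1.09), Cyp2c23, Mpp1 and Dct. Hc and Vnn1 were lower than in each of the 43 other lines. With TAK-875 the CC005/TauUnc mean of Vnn1 was 7.55. Vnn1 also rose in the other lines, by 0.95 ± 0.60 (SD over lines), so their vehicle level is not that of their treated mice.

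Against the spread between lines, 64 genes differed in vehicle level (0.704%), 15 higher (0.165%) and 49 lower (0.539%), and each of the 49 was lower than in every other line. Hprt, the X-linked purine salvage enzyme, lay furthest below the other lines, with 5.88, 6.38, 6.01 and 6.60 in the 4 vehicle mice, against 8.44 ± 0.18 in the other lines. Its TAK-875 mean was 6.93, still below the range of the others, and its probes may also bind related transcripts. The 49 included Cops3 (7.56, against 8.43 ± 0.16), Cops5 (7.96, against 8.67 ± 0.12), Cct4 (7.75, against 8.88 ± 0.24), Cct5 (8.91, against 9.72 ± 0.17), Mal2 (5.62, against 7.26 ± 0.33), Vti1b (7.80, against 8.58 ± 0.19), Chchd3 (8.55, against 9.16 ± 0.14), Acadm (8.27, against 9.38 ± 0.27) and Psmd1 (7.90, against 8.91 ± 0.25). Also among them were Opa1, the fusion protein of the inner mitochondrial membrane (5.65, against 6.76 ± 0.28), Mttp, the triglyceride transfer protein of lipoprotein assembly (9.54, against 10.37 ± 0.21), and Pex13 of peroxisome import (6.63, against 7.78 ± 0.24).

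With TAK-875, 44 of these 49 genes rose and 0 fell, where 7.17% of all genes rose and 3.72% fell. The TAK-875 mean lay within the range of the vehicle means of the other lines for 45. Cops3 reached 8.31 ± 0.12 (SD, n = 4), Cct5 9.69 ± 0.12, Chchd3 9.16 ± 0.14, Vti1b 8.65 ± 0.12 and Acadm 9.42 ± 0.31 in TAK-875 mice. The TAK-875 means of the other lines were 8.41 for Cops3, 9.78 for Cct5, 9.12 for Chchd3, 8.65 for Vti1b and 9.64 for Acadm. The vehicle difference, by which the 49 genes were picked, and the response share the 4 vehicle arrays of CC005/TauUnc. A low vehicle level by itself raises the change, so these counts are not independent of the choice of genes. No test was made of the relation. All 64 genes passed the limma test of vehicle level without vehicle mouse 1, 2 or 3, and 61 passed without vehicle mouse 4.

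**Figure D5:**
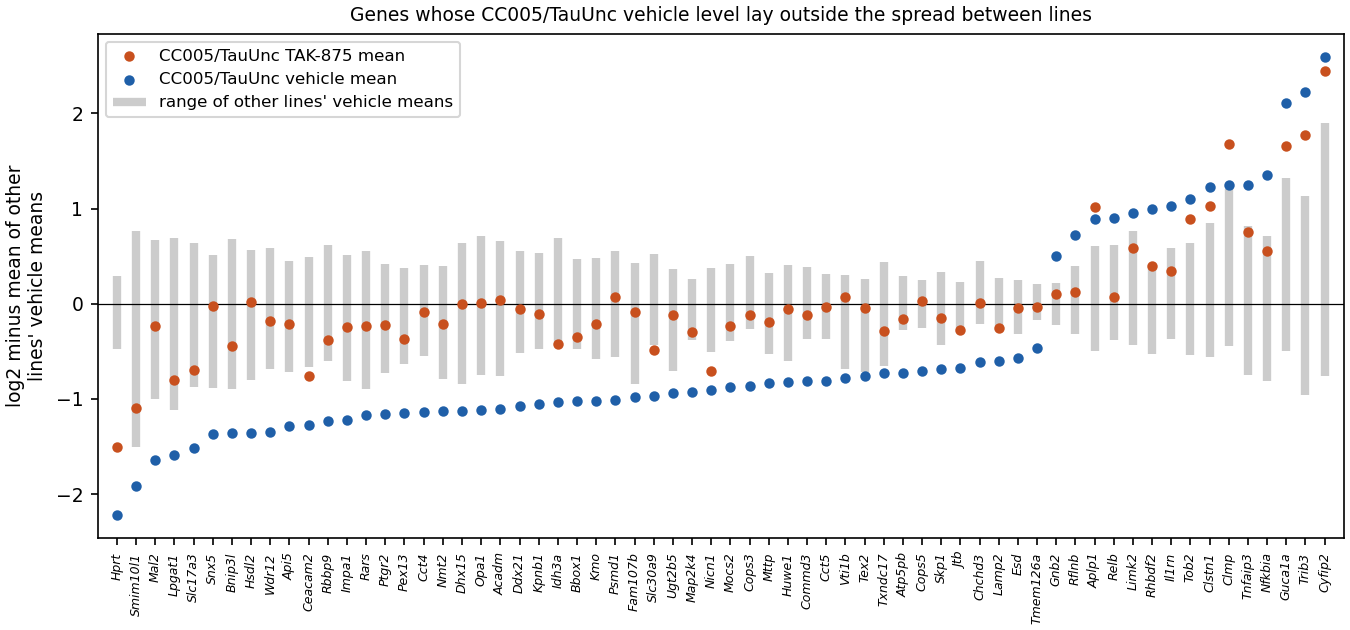
For the 64 genes whose CC005/TauUnc vehicle level lay outside the spread between lines, the CC005/TauUnc TAK-875 mean (orange) and vehicle mean (blue), each minus the mean of the other lines' vehicle means (log2), with the range of those means as grey bars. The TAK-875 mean lies within the grey range for 45 of the 49 genes that were low in vehicle mice and for 8 of the 15 that were high. The genes were chosen by the vehicle levels shown, and the relation to the response was not tested.

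The 15 higher genes included targets of NF-kB, the transcription factor of inflammatory signalling, chosen here after their values were seen. Nfkbia, its inhibitor, had 9.01, 8.86, 8.90 and 10.29 in the vehicle mice, against 7.91 ± 0.31 in the other lines. Tnfaip3, another brake on the pathway, had 4.76, 5.68, 4.68 and 8.53, against 4.66 ± 0.32. Il1rn, the interleukin 1 receptor antagonist, had 4.90, 5.75, 4.92 and 7.97, against 4.86 ± 0.16, and Relb had 3.86, 3.98, 3.60 and 6.19, against 3.50 ± 0.19. Vehicle mouse 4 was the highest in all 4 genes. Without it, Tnfaip3, Il1rn and Relb did not pass (adjusted p = 0.292, 0.0925 and 0.0877), and Nfkbia passed with a difference of 1.01. Trib3, a pseudokinase of the integrated stress response, had 8.40, 7.06, 7.47 and 7.86 in the vehicle mice, against 5.47 ± 0.50 in the other lines, and its difference was 2.17 without vehicle mouse 4.

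By list, the vehicle mice of CC005/TauUnc were higher than the other lines for 15 of 31 genes of the integrated stress response and lower for 5, with a median difference of 0.22, against 0.02 over all genes. Over all genes 23.2% were higher and 21.4% lower, the shares to set beside each count here that uses all 4 vehicle mice. Of 32 acute phase genes 14 were higher and 3 lower (median 0.61), and without vehicle mouse 4 these were 3 and 4 (median 0.25). Immediate early genes were higher in 11 of 24 and lower in 0, and without vehicle mouse 4 in 7 and 1. Of all 9093 genes, 1966 were higher and 1812 lower without vehicle mouse 4. Transporters of bile acids and organic anions were lower in 11 of 19 and higher in 3, with a median difference of -0.55, and heat shock genes and chaperones lower in 10 of 17 and higher in 3 (median -0.55). Without vehicle mouse 1 the lower counts were 7 of 19 transporters and 6 of 17 heat shock genes and chaperones. In the integrated stress response 11 of 31 genes were then higher and 1 lower. Of all 9093 genes, 1440 were higher and 1256 lower without vehicle mouse 1. PPARA targets were lower in 16 of 49 and higher in 2 (median -0.17). Proteasome genes were lower in 10 of 29 and higher in 5.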

How the data were processed

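Whole liver RNA was measured on Affymetrix HT MG-430 PM arrays. The deposited log2 levels of probe sets come from RMA, which the submitters' processing notes name together with Affymetrix Power Tools. Neither version is given in those sources. The table holds 16397 probe sets, of which 13083 name 1 gene. The probe set with the highest mean stood for each of 9093 genes, and no signal over background was used here.

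TAK-875 minus vehicle differences within pairs were fitted with limma 3.58.1 in R 4.3.3, with 1 mean per line, trended eBayes, two-sided tests and 127 residual degrees of freedom, so that all lines share 1 estimate of spread. P-values were adjusted by Benjamini-Hochberg over all 9093 genes, with a threshold of 0.05. The difference from the unweighted mean of the other lines came from the same fit, and vehicle levels from a like fit of vehicle arrays. The pair was kept in the fit because the labels say that mice were treated in pairs. Correlations of same-pair deviations were 0.05, 0.04, -0.19 and -0.22. An exact test over the signs of 4 pairs cannot go below p = 0.125.

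Named genes are the 15 genes that rose most and the 15 that fell most among those of 1 sign in all pairs, the 8 largest differences per direction from other lines in response and in vehicle level, up to 4 called members of each list, and a set of liver genes whatever their result. The members and lists were chosen with earlier results of these data known. Genes held with the axis and the 2 protein complexes were added after their values were seen. The calculations were tested on simulated data with independent noise for each gene. Those data lack variation shared between genes, such as the axis, so they do not give the error rate in its presence. The number of arrays limits the precision.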

Additional observations from a re-analysis of the deposited data

Results flagged for a closer look

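In 17 of 277 sets of 4 mice examined, each the TAK-875 or vehicle mice for 1 gene, 1 mouse stood apart from the other 3, judged by its gap to the nearest mouse as a share of the range. Chance gives such a gap in about 1 in 20 sets. Among TAK-875 mice the share was 0.836 for Acaa1b, 0.946 for Cygb, 0.886 for Hspa5, 0.836 for Irgm1, 0.848 for Mx1, 0.906 for Pde4dip and 0.862 for Ube2q2. Among vehicle mice it was 0.885 for C2, 0.872 for Cct4, 0.884 for Cebpd, 0.840 for Decr1, 0.913 for Mrpl35, 0.876 for Ndufv2, 0.896 for Nfkbia, 0.843 for Opa1, 0.870 for Pet100 and 0.854 for Relb.

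The change with TAK-875 in CC005/TauUnc minus the mean change of the other lines passed limma's test of that difference for the following genes. Positive differences were those of Txlng (1.82), Upp2 (1.73), Bex1 (1.63), Selenot (1.63), Phf11a (1.63), Gas2 (1.58), Trim2 (1.55), Gm20300 (1.54), Mal2 (1.46), Vti1b (0.78), Cops3 (0.76) and Chchd3 (0.64). Negative differences were those of Socs3 (-1.59), Crybb3 (-1.35), S100g (-1.20), Tmco6 (-0.96), Tcl1b1 (-0.95), Cygb (-0.91), Syt12 (-0.91) and Gm8273 (-0.90).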

How the results depend on the processing

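The number of genes changed by TAK-875, 990 with all pairs, was 25 to 1095 when 1 pair was left out, 59 with the axis of variation between vehicle mice as a covariate, and 1533 without the poorly correlated arrays of other lines, the last 2 settings being chosen after seeing the data. With the 4 pairs alone limma called 0 genes, though 2312 had an unadjusted p under 0.05; this fit has fewer samples to estimate the spread. The number of genes that differed in response from the other lines, 1085, was 17 to 1185 with 1 pair left out, 4 with lines as the unit and 40 with the axis. The number that differed in vehicle level, 4058, was 2696 to 3778 with 1 mouse left out, 64 with lines as the unit and 2576 with the axis. Without the pairing as a block, 832 genes changed and 922 differed in response. Centring, a second quantile normalization, the mean of all probe sets, leaving out dim genes, and eBayes without trend or robust kept each count within 1.5 times. The direction of Cpt1a (0.01) turned to -0.077 with centred arrays, -0.039 with quantile normalization and -0.18 with the axis, and was -0.26 to 0.23 with 1 pair left out. Saa3 (-0.72) was -1.63 to 1.15 and Cd14 (-0.09) -0.90 to 0.98 with 1 pair left out, and Cd14 was 0.048 with the axis. Fgf21 (-0.11) was -0.20 to 0.0067 with 1 pair left out and 0.0030 with the axis, Mt1 (-0.79) -1.44 to 0.43, Nqo1 (0.19) -0.020 to 0.40 and Pdk4 (0.17) -0.25 to 0.33 with 1 pair left out, and Nr1d2 (0.99) was -0.073 with the axis. None of these 8 genes passed the test. Except where named, the cause was not tested. Signal over background was not used here, so dim genes are not marked.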
